A study of Mus musculus with 238 samples.

Results

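The medulla and the pons, the lower and upper parts of the hindbrain, were compared within the same control mice, across all genes of a series of 238 bulk RNA libraries. The comparison used 14 libraries, 1 of medulla and 1 of pons from each of 7 mice, chosen from the labels by region, by treatment and by the number of the animal. All mice were C57BL/6JN animals of 19 months. The AL mice were 4 females fed freely (ad libitum), the controls of a diet experiment. The PBS mice were 3 males injected with saline behind the eye, the controls of a plasma experiment. Sex and experiment were the same split, so a difference between AL and PBS mice cannot be told apart from a difference between the sexes. A medulla library of PBS mouse 72 had no pons library beside it and entered only as an alternative. Medulla and pons of 5 dietary restricted (aDR) females and 3 males given plasma of young mice (YMP) were used as a second, separate set of 8 pairs. The files name the tissue of each library and give no borders of the dissection.

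The hindbrain forms from a row of segments, the rhombomeres, and Hox genes mark the position of a neuron along that row. The medulla holds the motor nuclei of tongue, throat and viscera, the respiratory and cardiovascular centres, noradrenaline cell groups, caudal raphe serotonin neurons and the inferior olive, which sends the climbing fibres of the cerebellum. The pons holds the pontine nuclei, which relay cortical signals to the cerebellum, as well as the locus coeruleus, parabrachial nuclei, motor nuclei of face, jaw and eye, and serotonin neurons that continue into the midbrain raphe. In bulk tissue, fewer cells of a type and less RNA per cell cannot be told apart.

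Values are read counts scaled to library size (CPM, with TMM factors, so that a library sums to about 1 M), and a difference is the log2 ratio of medulla to pons in the paired fit, positive where medulla was higher. A gene was called when its Benjamini-Hochberg adjusted p in the edgeR quasi-likelihood test was under 0.05. Library totals were 3.32 to 11.3 M counts in medulla and 2.28 to 14.3 M in pons (M, mega). Intervals and limits from counts cover counting error only, since PCR copies were not marked. The mice are separate animals, but each gave 1 piece of each region, so differences in how a piece was cut are part of the spread between pairs.

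Some libraries stood apart in genes that mark neighbouring tissue. The pons library of AL mouse 68 had no count of Hoxb5, Hoxc4, Hoxb2 or Hoxa5, and Hoxd3 was at 0.142 CPM, whereas the other 6 pons libraries held 18.4 to 40.3 CPM of Hoxb5. The same library held 1211 CPM of Slc6a3, the dopamine transporter of midbrain dopamine neurons, and 1173 CPM of Th, the first enzyme of catecholamine synthesis. Slc6a3 was also present in pons of AL mouse 69 (316 CPM), PBS mouse 84 (249.6 CPM) and PBS mouse 80 (17.7 CPM). The other 3 pons libraries were at 0 to 2.75 CPM and all 7 medulla libraries together held 3 counts. In medulla of PBS mouse 84, Hoxb5 was at 0.232 CPM against 13.5 to 83.1 CPM in the other 6. That library also held 294 CPM of Ttr, a choroid plexus transcript that was at 0 to 17.8 CPM in the other medulla libraries. Whether such libraries hold tissue of a neighbouring region was not tested, and results that rest on mouse 68 or mouse 84 are given with and without them.

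**Figure D1:**
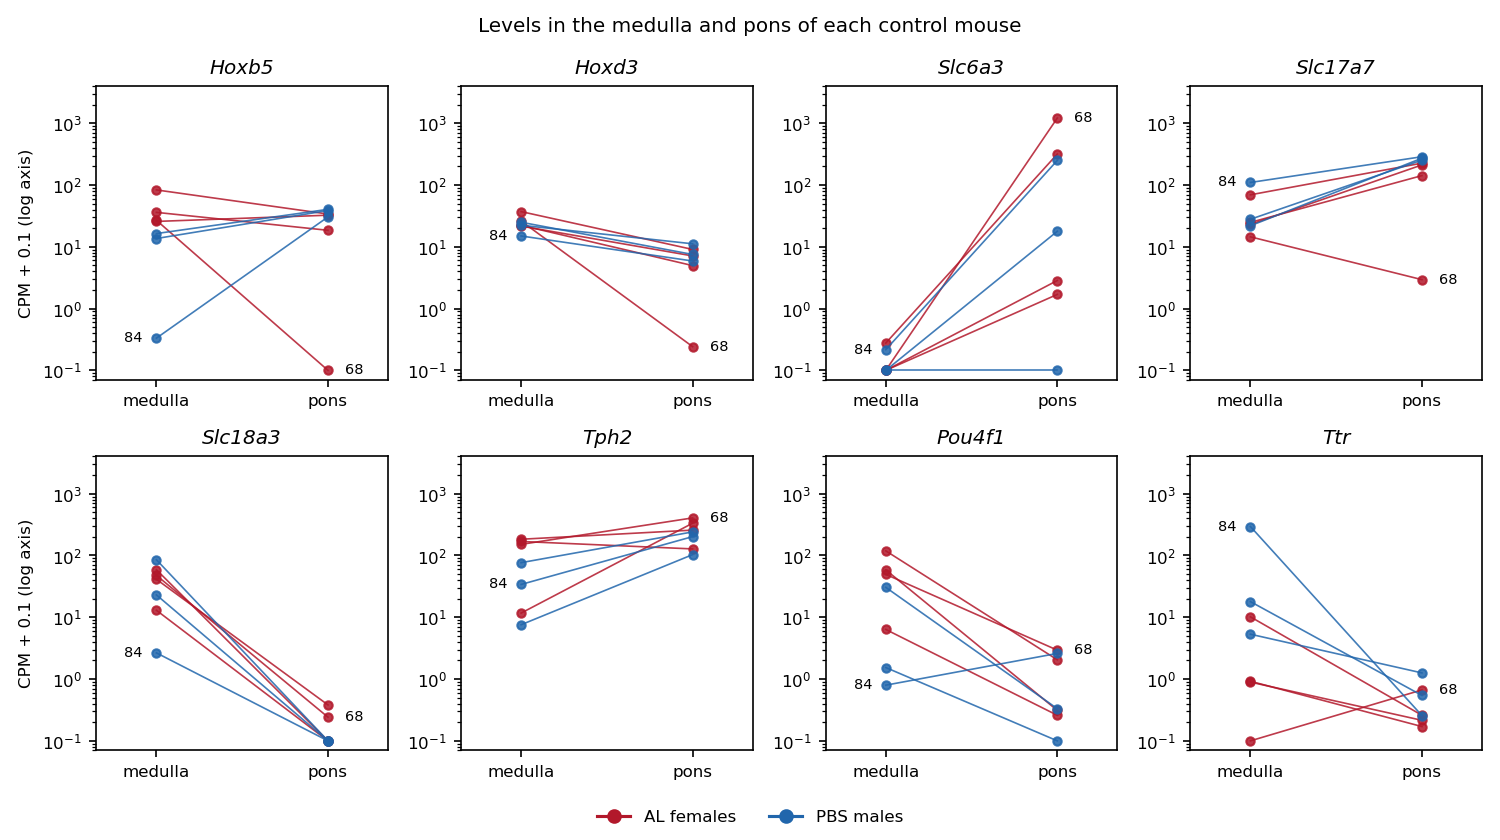
CPM plus 0.1 (log axis) of 8 genes in the medulla and pons of each control mouse, with a line joining the libraries of a mouse (red, 4 AL females; blue, 3 PBS males). Pons of mouse 68 sits apart for Hoxb5, Hoxd3 and Slc17a7. It is the highest for Slc6a3, which is also high in pons of mice 69 and 84. Medulla of mouse 84 sits apart for Hoxb5, Slc18a3 and Ttr, and Slc18a3 lies higher in medulla in every mouse.

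Of 13518 genes tested, 1435 were called (10.6%), 742 higher in medulla (5.49%) and 693 higher in pons (5.13%). Differences of at least 1 log2 unit were called for 126 genes in medulla (0.932%) and 160 in pons (1.18%), so most called differences were smaller than 1 log2 unit. The values of the 7 medulla and 7 pons libraries did not overlap at all for 401 genes (2.97%). Without mouse 68 the count was 1897 of 13535 tested, with 850 higher in medulla (6.28%) and 1047 higher in pons (7.74%), and 1300 of the 1435 genes were called again, all 1300 in the same direction. Without mice 68 and 84 the count was 2322 (17.2%). Leaving out single mice gave 812 to 1897 calls: 812 without mouse 63, 817 without mouse 80, 819 without mouse 69 and 873 without mouse 76.

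The split by experiment gave 305 calls in the 4 AL females (2.22%) and 910 in the 3 PBS males (6.92%). The difference itself was tested as a region by cohort term. It was called for 0 of 13518 genes with edgeR (0%; 1273 genes had an unadjusted p under 0.05) and for 8 of the 938 genes that DESeq2 kept after its own filtering. The 2 fits of single experiments hold different numbers of mice, so their counts of calls do not measure how far the sexes or experiments differ.

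Several of the large differences toward medulla were in genes of cholinergic neurons, cells that release acetylcholine and include the motor neurons of the brainstem. Of 17 genes listed for cholinergic and motor neurons, 13 passed the filter on low counts and 11 were called, 10 higher in medulla and 1 higher in pons, against 10.6% called and 5.49% higher in medulla over all genes, with a median log2 difference of 2.93 beside 0.00 over all genes. The same 10 to 1 split was found without mouse 68, and between 8 and 10 members were higher in medulla when any 1 mouse was left out. The list was chosen with earlier results of these data known.

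The genes of the vesicular acetylcholine transporter (Slc18a3) and of the synthesising enzyme choline acetyltransferase (Chat) share a locus. Slc18a3 lies at chr14:32462438-32464850 (GRCm38, minus strand, GENCODE annotation), inside the bounds of Chat at chr14:32408203-32465989 on the same strand. Because the libraries carry no strand and the counting rule is not given in the sources used here, reads of the shared stretch could have gone to either gene, and the 2 values are not independent. The bases before each start are shown because both genes were higher in medulla by more than 6 log2 units and share a locus. They are the 250 bases upstream from RefSeq (GRCm38.p6), minus strand, 5′ to 3′, at chr14:32464851-32465100 and chr14:32465910-32466159. Capitals mark the E-box CANNTG, a palindrome bound by basic helix-loop-helix factors:
Slc18a3: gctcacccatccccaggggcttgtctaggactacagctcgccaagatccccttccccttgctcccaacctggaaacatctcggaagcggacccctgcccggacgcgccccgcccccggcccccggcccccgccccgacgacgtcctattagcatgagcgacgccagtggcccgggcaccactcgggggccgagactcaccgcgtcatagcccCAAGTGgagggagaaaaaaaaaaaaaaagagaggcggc
Chat: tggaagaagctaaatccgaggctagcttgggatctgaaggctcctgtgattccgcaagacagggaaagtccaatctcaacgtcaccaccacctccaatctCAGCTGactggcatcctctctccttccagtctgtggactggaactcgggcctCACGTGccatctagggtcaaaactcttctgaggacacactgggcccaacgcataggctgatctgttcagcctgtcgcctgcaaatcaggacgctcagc
The Slc18a3 window holds 1 match and the Chat window 2, and 66.2% of 32851 upstream windows of that length hold at least 1, with a median of 1 per window. The homeodomain core TAATTA, searched on both strands, has 0 matches in either window and is present in 4.84% of all windows. Matches are a description of the letters and show no binding.

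Slc18a3 was at 2.55 to 85.03 CPM (median 41.05) in medulla, and pons held 5 counts over its 7 libraries, 4 of them in AL mouse 66. The medulla values do not overlap those of pons in any mouse, and the lowest medulla value was that of PBS mouse 84. The ratio of the pooled counts was 317-fold (exact 95% interval 136 to 977), and the fitted log2 difference was 8.33, SE 0.28, edgeR adjusted p 2.11e-07, a value that depends on the prior count because pons is so near 0. Chat was at 1.97 to 63.2 CPM (median 32.2) in medulla and 0 to 1.33 CPM (median 0.115) in pons, again without overlap (log2 difference 6.61, SE 0.38, edgeR adjusted p 1.29e-05). Slc5a7, the choline transporter that feeds acetylcholine synthesis, lies on chromosome 17 (chr17:54273590-54299034) and was at 4.87 to 131 CPM (median 61.2) in medulla against 0 to 1.56 CPM (median 0.574) in pons (log2 difference 6.24, SE 0.39, edgeR adjusted p 1.83e-05). All 3 were higher in medulla in 7 of 7 pairs, and in each of them the medulla of mouse 84 was lowest and that of mouse 76 highest. Whether the pons pieces held the motor nuclei of the pons was not tested, so the low pons values describe these pieces only.

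Markers of motor neurons were also higher in medulla. Chodl, a membrane protein enriched in fast motor neurons, was at 4.64 to 54.03 CPM (median 26.1) in medulla and 0.115 to 2.11 CPM (median 1.33) in pons (log2 difference 4.20, SE 0.22, edgeR adjusted p 7.69e-06). Prph, the peripherin filament of neurons with peripheral axons, was at 10.1 to 97.6 CPM (median 63.6) against 0.926 to 6.90 CPM (median 2.07) (log2 difference 3.90, SE 0.38, edgeR adjusted p 0.000247). Neither of these overlapped between the regions.

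The LIM homeodomain factors Lhx4 (log2 difference 2.93, edgeR adjusted p 0.00179) and Lhx3 (1.98, edgeR adjusted p 0.00127), which act together in motor neuron and V2a interneuron specification, were both higher in medulla in 7 of 7 pairs. The calcitonin gene Calca was higher in 6 of 7 pairs (log2 difference 2.86, SE 0.67, edgeR adjusted p 0.0227) and kept its call in 3 of the 7 fits that left out 1 mouse, with adjusted p up to 0.0783 in the others. Ache, the enzyme that breaks acetylcholine down and is made by many cell types, differed by only 0.28 (edgeR adjusted p 0.0374) and was called in 2 of the 7 fits (adjusted p up to 0.0895). Nos1, neuronal nitric oxide synthase, was the member higher in pons (-0.50, edgeR adjusted p 0.00188, lower in medulla in 7 of 7 pairs). Isl1, Isl2, Mnx1 and Tbx20 did not pass the filter. The pons of mouse 68 was near 0 for Chat and Slc18a3 like the other pons libraries, and without mouse 68 the Chat difference was 7.03, edgeR adjusted p 5.18e-06.

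**Figure D2:**
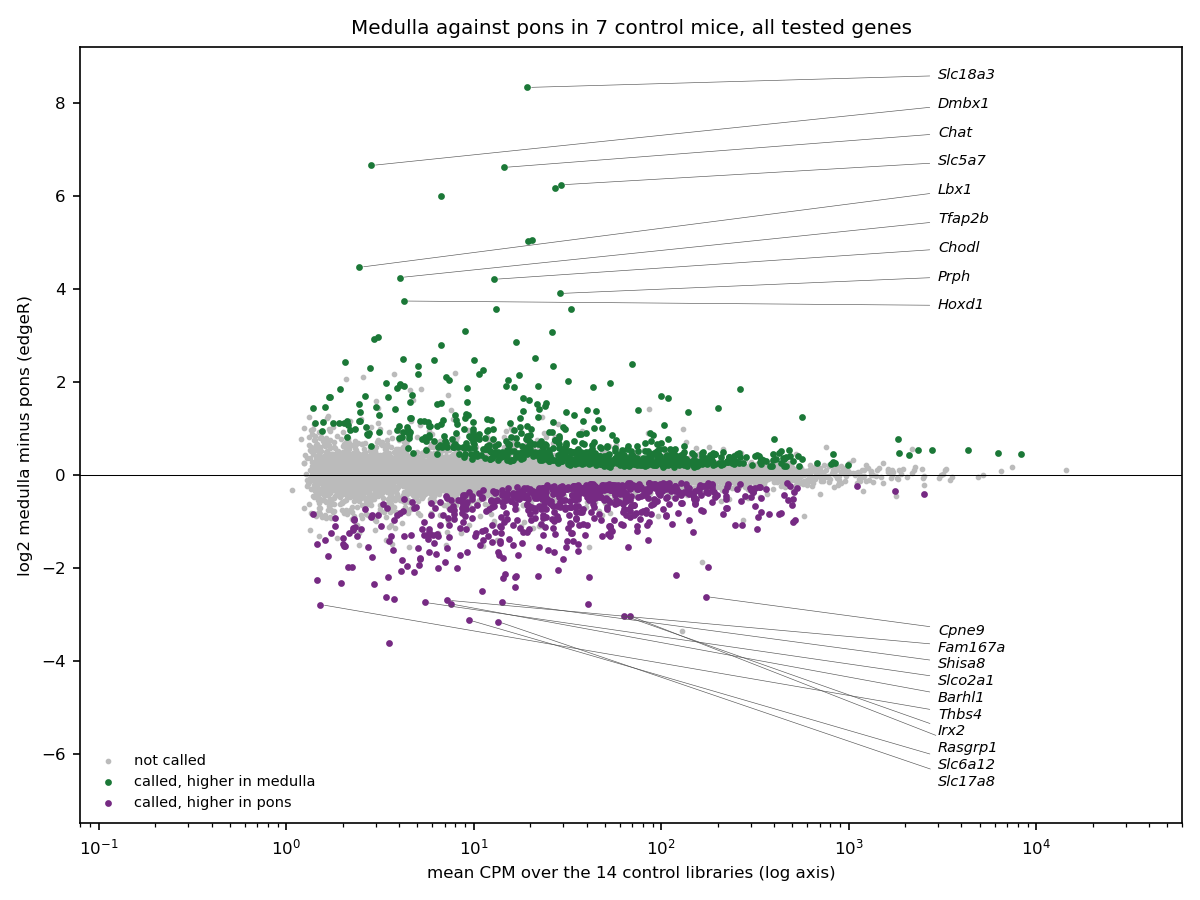
Log2 medulla minus pons against mean CPM (log axis) for 13518 tested genes in 7 control mice, with 19 genes named by rule marked. Called genes are green where higher in medulla (742) and purple where higher in pons (693), and the cholinergic genes Slc18a3, Chat and Slc5a7 lie above a log2 difference of 6.

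The 19 genes labelled in the plot of all genes are from the 10 largest called differences in each direction among 1037 called genes that had the same sign in all 7 pairs and enough counts. Transcription factors joined the cholinergic genes on the medulla side. Dmbx1, a homeodomain factor, was at 1.67 to 10.1 CPM (median 4.98) in medulla, and pons held 2 counts in all, a pooled ratio of 124 (exact 95% interval 34.2 to 1030.0). Lbx1, which specifies dorsal hindbrain and spinal neurons that receive somatic sensation, was at 1.85 to 8.996 CPM (median 4.87) in medulla and 0 to 0.422 CPM (median 0) in pons (log2 difference 4.46, SE 0.57, edgeR adjusted p 0.00122). Tfap2b, an AP-2 factor found in noradrenaline and inhibitory neurons, had a log2 difference of 4.24, SE 0.51, edgeR adjusted p 0.000810. In pons, Tfap2b was highest in mouse 68 at 1.70 CPM, and without that mouse the difference was 5.55, edgeR adjusted p 6.75e-06.

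Hox genes did not divide the regions as a block. Of 8 Hox genes of paralogue groups 1 to 3, 7 were tested and 2 were called, both higher in medulla (28.6%, against 10.6% of all genes). The list median was a log2 difference of 0.97, and 4 were called without mouse 68. Of the 7 genes of groups 4 and 5, all tested, 1 was called, higher in medulla (14.3%, median 0.45). None of 24 genes of groups 6 to 13, which mark spinal levels, passed the filter, and 11 of them had no count in any of the 14 libraries. Summed over the last list, medulla libraries held 0.116 to 16.9 CPM and pons libraries 0.426 to 2.66 CPM.

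The called members came from the HoxD cluster on chromosome 2. Hoxd1 was at 1.74 to 20.5 CPM (median 6.14) in medulla and 0 to 1.03 CPM (median 0.633) in pons without overlap (log2 difference 3.74, SE 0.30, edgeR adjusted p 6.88e-05). Hoxd3 was at 14.9 to 37.01 CPM (median 22.2) in medulla and 0.142 to 11.1 CPM (median 7.01) in pons, also without overlap (log2 difference 2.03, SE 0.36, edgeR adjusted p 0.00631). Without mouse 68, whose pons was lowest, Hoxd3 differed by 1.72, edgeR adjusted p 5.87e-05. Hoxd4 differed by 1.86, edgeR adjusted p 0.0276, in 6 of 7 pairs, and was called in 3 of the 7 fits that left out 1 mouse (adjusted p up to 0.0964). Hoxd4 lies within the annotated bounds of Hoxd3 on the same strand, so their counts may share reads. Haglr, the noncoding RNA beside Hoxd1 that was added after its values were seen, had a log2 difference of 2.17, SE 0.25, edgeR adjusted p 0.000681.

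Hoxb5, Hoxc4 and Hoxa5 were not called, and their values in the 2 regions overlapped widely. Hoxb5 was at 0.232 to 83.1 CPM (median 25.6) in medulla and 0 to 40.3 CPM (median 32.3) in pons (log2 difference -0.05, SE 0.76, edgeR adjusted p 0.985). Its difference was 1.24 in AL mice and -2.26 in PBS mice (edgeR adjusted p of the cohort term 0.451), and its sign changed between alternatives. Hoxc4 was at 1.16 to 26.7 CPM (median 18.6) and 0 to 21.3 CPM (median 14.3) (log2 difference 0.45, SE 0.62, edgeR adjusted p 0.700). Setting aside pons of mouse 68 and medulla of mouse 84, both groups of libraries held more than 10 CPM of Hoxb5.

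Other regional factors split in both directions. Of 22 listed factors of midbrain and anterior hindbrain, 16 were tested. Of those, 6 were higher in medulla and 5 higher in pons (68.8% called, against 10.6% of all genes). Higher in medulla were Pax8 (6.08 to 26.1 CPM (median 17.3) against 0.886 to 4.96 CPM (median 2.98) in pons, log2 difference 2.47, SE 0.35, edgeR adjusted p 0.00197) and Pax2 (2.29, edgeR adjusted p 0.00273), paired-box factors of inhibitory hindbrain neurons. Nkx6-1, a ventral progenitor factor kept in some brainstem neurons, was at 2.90 to 10.3 CPM (median 7.98) against 0.443 to 2.41 CPM (median 1.12) (edgeR adjusted p 0.000464), and Gbx2, a factor of the midbrain and hindbrain boundary, differed by 1.93, edgeR adjusted p 0.00297. All 4 were higher in medulla in 7 of 7 pairs without overlap. Higher in pons were the Iroquois factor Irx2 and the engrailed factor En1. Irx2 (chr13:72628820-72634198, plus strand) was at 8.24 to 21.1 CPM (median 11.97) in medulla and 22.8 to 158 CPM (median 121) in pons (log2 difference -3.03, SE 0.26, edgeR adjusted p 0.000109), with the pons minimum in mouse 68. Its paralogue Irx1, added after its values were seen, differed by -2.19, edgeR adjusted p 0.000437, and Irx3 by -0.54, edgeR adjusted p 0.0149.

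En1 was at 0.958 to 2.46 CPM (median 2.09) in medulla and 1.16 to 25.1 CPM (median 4.36) in pons (log2 difference -1.95, SE 0.41, edgeR adjusted p 0.0146). The 3 highest pons values were those of mice 68, 84 and 69, the mice with the most Slc6a3 there. Without mouse 68 the difference was -1.60, edgeR adjusted p 0.0233, and without mouse 69 the adjusted p was 0.0530. Without mice 68 and 84 the En1 difference was -1.21 (edgeR adjusted p 0.0540). The part of dopamine marker transcripts in this difference was not tested.

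Of 24 other hindbrain homeodomain and related factors, 18 were tested (50% called, against 10.6% of all genes). Of those, 8 were higher in medulla and 1, En1, was higher in pons (median log2 difference 0.45). The former included Dmbx1, Lbx1, Lhx3, Lhx4 and Meis2. Meis2, a Hox cofactor, was at 123 to 156 CPM (median 138) in medulla and 36.3 to 111 CPM (median 60.6) in pons without overlap (log2 difference 1.06, SE 0.18, edgeR adjusted p 0.00447).

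Factors of the rhombic lip, the germinal zone that gives rise to the pontine nuclei and other sources of mossy fibres, went the other way. Of 14 listed, 9 were tested and 5 were higher in pons, 0 higher in medulla (55.6% called, against 10.6% of all genes). The median log2 difference was -0.65, and 5 members were called in every fit that left out 1 mouse. Barhl1, a homeodomain factor of this lineage, was at 0.240 to 4.64 CPM (median 1.53) in medulla and 0.426 to 21.1 CPM (median 15.1) in pons (log2 difference -2.78, SE 0.29, edgeR adjusted p 0.000364). Its lowest pons value was that of mouse 68, and the other 6 pons libraries held at least 9.995 CPM, above every medulla value. Zic2 differed by -1.57, edgeR adjusted p 0.00795, Zic1 by -1.39, edgeR adjusted p 0.00978, Pax6 by -1.10, edgeR adjusted p 0.0132 and Nfib by -0.65, edgeR adjusted p 0.00661. For Zic1 the mouse in which the regions differed most was PBS mouse 76, at -3.44 log2 units. Barhl1, Zic1 and Zic2 were highest in the medulla of mouse 84, which at 109.8 CPM also had the most Slc17a7 among medulla libraries.

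Glutamate neurons load transmitter with one of 3 vesicular transporters, and these took different directions. Slc17a6 (VGLUT2), the main transporter of brainstem neurons, was at 269 to 323 CPM (median 299.9) in medulla and 143 to 249 CPM (median 228) in pons without overlap, a modest log2 difference of 0.48, SE 0.09, edgeR adjusted p 0.01000. Slc17a7 (VGLUT1), used by pontine nuclei and cortex, was at 14.4 to 109.8 CPM (median 24.7) in medulla and 2.84 to 287 CPM (median 226) in pons (log2 difference -2.16, SE 0.49, edgeR adjusted p 0.0192). Pons of mouse 68 held 2.84 CPM, less than any medulla library, while the other 6 pons libraries held at least 142 CPM, above every medulla value. Without mouse 68 the difference was -2.52, edgeR adjusted p 0.000223. With mouse 68 kept, the Slc17a7 call was lost without mouse 63, 76 or 80 (adjusted p up to 0.0688).

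Slc17a8 (VGLUT3), which is found in serotonin and other raphe neurons as a second transmitter system, was the gene with the largest difference toward pons under the rule. It was at 0.464 to 3.83 CPM (median 2.76) in medulla and 9.74 to 39.7 CPM (median 28.2) in pons without overlap (log2 difference -3.16, SE 0.33, edgeR adjusted p 0.000375). Pons of mouse 68 was among the highest at 32.6 CPM.

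Over 32 genes of glutamate transport and reception, all tested, 5 were higher in medulla and 7 higher in pons. That was 37.5% called, against 10.6% of all genes, with a median log2 difference of -0.06. Grm2, a presynaptic inhibitory glutamate receptor, was at 3.07 to 14.8 CPM (median 5.36) in medulla and 18.7 to 37.6 CPM (median 25.97) in pons without overlap (log2 difference -2.18, SE 0.22, edgeR adjusted p 0.000318). The related Grm8 differed by -1.43, edgeR adjusted p 0.00267. In Grm8 the pair of mouse 68 went the other way, and without it the difference was -1.68, edgeR adjusted p 3.92e-06. Grin3b, an NMDA receptor subunit known from motor neurons, was higher in medulla at 5.82 to 13.8 CPM (median 8.39) against 2.18 to 4.14 CPM (median 2.66) (log2 difference 1.53, SE 0.20, edgeR adjusted p 0.00122).

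Glycine, the fast inhibitory transmitter of spinal cord and lower brainstem, was marked by its plasma membrane transporter Slc6a5 (GLYT2). Slc6a5 was at 54.98 to 194 CPM (median 115) in medulla and 3.97 to 45.8 CPM (median 25.0) in pons without overlap (log2 difference 2.37, SE 0.31, edgeR adjusted p 0.00127). The lowest pons value was that of mouse 68, and without it the difference was 2.06, edgeR adjusted p 2.63e-05. Of 8 tested glycine genes of 9, 3 were higher in medulla and 1 higher in pons (50% called, against 10.6% of all genes). Glra1, the adult glycine receptor subunit, was at 28.4 to 43.6 CPM (median 34.8) against 7.23 to 21.1 CPM (median 11.6) (log2 difference 1.49, SE 0.14, edgeR adjusted p 0.000247), and Slc32a1, the vesicular transporter shared by GABA and glycine neurons, differed by 0.91, edgeR adjusted p 0.0124. Glra2, the subunit that dominates early in development, was the one higher in pons (-0.72, edgeR adjusted p 0.0200), with its call lost without mouse 69 or 76 (adjusted p up to 0.0598).

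GABA synthesis genes did not pass the test: Gad1 differed by -0.10, edgeR adjusted p 0.863 and Gad2 by -0.04, edgeR adjusted p 0.917, and both signs turned without mouse 68 (to 0.05 and 0.04). Of 20 GABA genes 19 were tested, 2 were higher in medulla and 2 higher in pons (21.1% called, against 10.6% of all genes). Without mouse 68 these counts were 4 and 2. The receptor subunit Gabrb2 was at 23.0 to 63.9 CPM (median 44.2) in medulla and 41.6 to 97.2 CPM (median 60.2) in pons (log2 difference -0.58, SE 0.12, edgeR adjusted p 0.0146). The subunit Gabra5 was higher in medulla (0.41, edgeR adjusted p 0.0370) and was called in 2 of the 7 fits that left out 1 mouse (adjusted p up to 0.110).

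**Figure D3:**
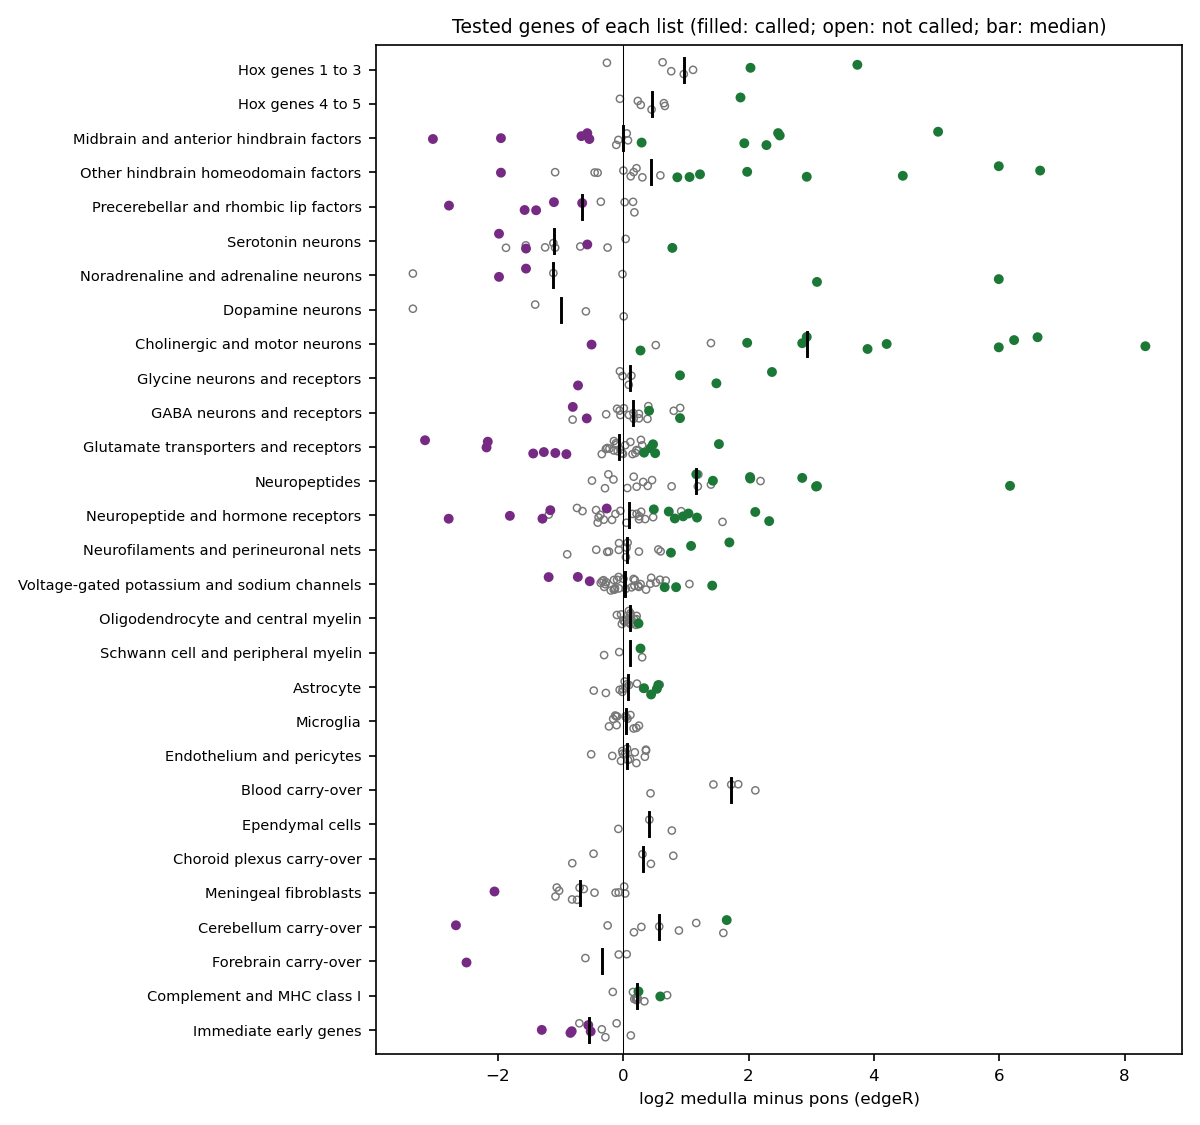
Log2 medulla minus pons of every tested gene of 29 lists in control mice, with 1 point a gene (filled green, called higher in medulla; filled purple, called higher in pons; open, not called) and a bar at the list median. The cholinergic list reaches from Nos1 at -0.50 to Slc18a3 at 8.33, while myelin, microglia and endothelial genes lie near 0.

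Serotonin neurons are present in both regions, and their markers varied widely between mice. Tph2, the enzyme that commits tryptophan to serotonin, was at 7.47 to 183 CPM (median 76.4) in medulla and 103 to 406 CPM (median 241) in pons. Pons was higher in 6 of 7 pairs, but the log2 difference of -1.87, SE 0.54, edgeR adjusted p 0.0520 did not pass the test. Tph2 was called in 2 of the 7 fits that left out 1 mouse, in the PBS mice alone, with DESeq2, with voom and without the filter on low counts, so its side of the threshold depended on the fit. Medulla values fell into a wide range, with mice 63, 80 and 84 at 7.47 to 33.9 CPM and mice 66, 68, 69 and 76 at 76.4 to 183 CPM. Slc6a4, the serotonin transporter, had the same order of mice in medulla apart from its highest values (log2 difference -1.55, edgeR adjusted p 0.0987), and Fev, a factor of serotonin neurons, differed by -0.68, edgeR adjusted p 0.304.

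Of 12 serotonin genes, all tested, 3 were higher in pons and 1, the receptor Htr1b (0.78, edgeR adjusted p 0.0296), was higher in medulla. The share called was 33.3%, against 10.6% of all genes. The 3 were Slc18a2, Ddc and Gata3, and with single mice left out Gata3 was called in 2 of the 7 fits and Htr1b in 4 of the 7 fits (adjusted p up to 0.0780 and 0.0924). Slc18a2, the vesicular transporter of all monoamines, was at 22.4 to 149 CPM (median 69.99) in medulla and 89.5 to 771 CPM (median 229.9) in pons (log2 difference -1.98, SE 0.34, edgeR adjusted p 0.00572), with the highest value in pons of mouse 68. Ddc, the decarboxylase shared by serotonin and catecholamine synthesis, differed by -1.55, edgeR adjusted p 0.0135. Without mouse 68 the differences were -1.77, edgeR adjusted p 0.00725 for Slc18a2 and -1.31, edgeR adjusted p 0.0182 for Ddc. Slc6a3 and Th ran high in the same pons libraries of mice 68, 69 and 84, and their part in the Slc18a2 and Ddc differences was not tested.

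Of 11 noradrenaline and adrenaline genes 7 were tested, 2 were higher in medulla and 2 higher in pons (57.1% called, against 10.6% of all genes). The 2 higher in pons were Slc18a2 and Ddc, already counted in the serotonin list, so the 2 lists are not independent. Of 9 dopamine genes 4 were tested and none was called. Dbh, which converts dopamine to noradrenaline, was below the filter with 367 counts in medulla (0.839 to 18.8 CPM (median 2.44)) and 1 count in pons, of mouse 63. The pooled ratio was 303-fold (exact 95% interval 54.1 to 12000.0), and Dbh was above its pons value in 7 of 7 mice. Without mouse 68 it passed the filter and differed by 7.51, edgeR adjusted p 1.45e-05. Whether the pons pieces held the locus coeruleus was not tested. Th was not called (log2 difference -3.35, SE 1.31, edgeR adjusted p 0.130), with 1.62 to 1173 CPM (median 16.4) in pons and 1.86 to 15.4 CPM (median 6.03) in medulla. Pons held less Th than medulla in 3 mice and more in 4. Th was called higher in pons in 1 of the 7 fits that left out 1 mouse (without mouse 66, adjusted p 0.0485), without the mouse block and with voom. Slc6a3 was not tested because few libraries held counts, and its pooled ratio of pons to medulla was 5230 (exact 95% interval 1790 to 25400), of which pons of mouse 68 held the most.

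Of 50 listed neuropeptide genes 23 were tested and 8 were called, all 8 higher in medulla, where 5.49% of all genes were higher (median log2 difference 1.17), and leaving out single mice gave 4 to 10 called members, all higher in medulla. Trh, the thyrotropin-releasing hormone made by caudal raphe and other medullary neurons, was at 0.232 to 187 CPM (median 30.1) in medulla and 0 to 1.56 CPM (median 0.563) in pons (log2 difference 6.17, SE 0.81, edgeR adjusted p 0.00128). Its medulla values were 30.1 to 187 CPM in mice 66, 68, 69 and 76 and 0.232 to 2.13 CPM in mice 63, 80 and 84. Crh, the stress peptide that inferior olive neurons also make, was at 4.41 to 162 CPM (median 26.1) in medulla and 0.993 to 8.10 CPM (median 4.87) in pons (log2 difference 3.08, SE 0.68, edgeR adjusted p 0.0176), and was not called without mouse 66 or 69 (adjusted p up to 0.0640).

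Gal, galanin, differed by 3.09, edgeR adjusted p 0.00152 and was higher in medulla in 7 of 7 pairs. Penk, the precursor of the enkephalins, was at 95.1 to 412 CPM (median 326) in medulla and 46.5 to 152 CPM (median 114) in pons (log2 difference 1.43, SE 0.25, edgeR adjusted p 0.00632), and only the pair of mouse 84 went the other way. Tac1, the precursor of substance P, differed by 2.02, edgeR adjusted p 0.0244, and Npy, neuropeptide Y, by 2.03, edgeR adjusted p 0.0413. Tac1 and Npy were each called in 2 of the 7 fits that left out 1 mouse, those without mouse 68 or mouse 84. Peptides that did not pass included Cartpt (2.19, edgeR adjusted p 0.105) and Sst (0.46, edgeR adjusted p 0.143). In both the pair of mouse 68 went the other way, and without that mouse both were called higher in medulla (3.46, edgeR adjusted p 2.15e-05 for Cartpt, and 0.68, edgeR adjusted p 0.000185 for Sst).

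Of 51 receptor genes for peptides and hormones 34 were tested. Of those, 8 were higher in medulla and 5 higher in pons (38.2% called, against 10.6% of all genes). Mc4r, the melanocortin receptor of autonomic neurons, was at 5.22 to 10.7 CPM (median 9.15) in medulla and 0.459 to 2.66 CPM (median 1.83) in pons without overlap (log2 difference 2.33, SE 0.20, edgeR adjusted p 0.000142). Trhr, the receptor of Trh, was at 4.76 to 17.2 CPM (median 12.5) against 1.16 to 4.40 CPM (median 1.91), also without overlap (log2 difference 2.11, SE 0.30, edgeR adjusted p 0.00187). Receptors of neuropeptide Y were higher in medulla, Npy1r by 1.04, edgeR adjusted p 0.00822, and Npy2r by 1.18, edgeR adjusted p 0.00795.

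On the pons side, Glp1r, the receptor of glucagon-like peptide 1, was at 5.45 to 12.4 CPM (median 9.58) in medulla and 4.96 to 93.5 CPM (median 83.3) in pons (log2 difference -2.78, SE 0.37, edgeR adjusted p 0.00130). Pons of mouse 68 held 4.96 CPM, within the medulla range, and the other 6 pons libraries held at least 53.6 CPM. Without mouse 68 the Glp1r difference was -3.14, edgeR adjusted p 2.12e-06. Crhr1, the main receptor of Crh, differed by -1.81, edgeR adjusted p 0.00113 and Hcrtr2, an orexin receptor, by -1.29, edgeR adjusted p 0.00427, again with mouse 68 lowest in pons. Oprd1, the delta opioid receptor, differed by -1.16, edgeR adjusted p 0.0495, and the pair of mouse 68 went the other way. Without that mouse the Oprd1 difference was -1.46, edgeR adjusted p 7.19e-05, and no other fit that left out 1 mouse called it (adjusted p up to 0.135).

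A pair of genes with high values in some medulla libraries are known from the inferior olive. Pou4f1, a POU factor of that nucleus, was at 30.4 to 119 CPM in medulla of mice 66, 68, 69 and 76. In medulla of mice 63, 80 and 84 it was at 0.696 to 6.25 CPM, and in pons at 0 to 2.84 CPM (median 0.231). The log2 difference was 5.02, SE 0.74, edgeR adjusted p 0.00230, with medulla higher in 6 of 7 pairs. Htr5b, a serotonin receptor chosen after its values were seen, was at 38.7 to 127 CPM in the same 4 medulla libraries and at 0.192 to 0.812 CPM in the other 3. Medulla was higher than pons in 4 of 7 pairs for Htr5b (log2 difference 5.06, SE 0.84, edgeR adjusted p 0.00440). A large mean difference of these genes therefore rested on 4 of the 7 medulla libraries, the same ones that were high for Trh and Tph2.

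The remaining genes named by rule on the pons side had less in common. Slc6a12, the betaine and GABA transporter BGT-1, was at 0.307 to 4.41 CPM (median 1.37) in medulla and 2.98 to 29.9 CPM (median 17.2) in pons (log2 difference -3.13, SE 0.30, edgeR adjusted p 0.000247). Rasgrp1, a diacylglycerol-responsive activator of Ras, was at 7.91 to 29.96 CPM (median 11.97) and 32.8 to 188 CPM (median 130.2) (log2 difference -3.04, SE 0.20, edgeR adjusted p 2.48e-05). Cpne9, a copine of the calcium-binding family, was at 23.3 to 99.1 CPM (median 39.8) and 64.7 to 442 CPM (median 317) (log2 difference -2.62, SE 0.31, edgeR adjusted p 0.000701). Of these 3, only Rasgrp1 had no overlap between the regions.

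Thbs4, an extracellular thrombospondin, was at 0.152 to 0.705 CPM (median 0.274) in medulla and 1.42 to 3.99 CPM (median 2.78) in pons (log2 difference -2.79, SE 0.35, edgeR adjusted p 0.00111). Slco2a1, a prostaglandin transporter, differed by -2.75, edgeR adjusted p 4.98e-05. Shisa8, an AMPA receptor auxiliary protein, differed by -2.75, edgeR adjusted p 0.000142 and Fam167a by -2.70, edgeR adjusted p 0.000473. Pons of mouse 68 was the lowest pons library for Slc6a12, Rasgrp1, Cpne9, Thbs4, Slco2a1 and Shisa8, and the highest for Fam167a at 28.5 CPM. Without mouse 68 each of these 7 genes was still called in the same direction.

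Of 15 tested neurofilament and perineuronal net genes of 16, 3 were higher in medulla (20% called, against 10.6% of all genes). They were Sncg (1.69, edgeR adjusted p 0.00129), Nefm (0.76, edgeR adjusted p 0.0420) and Acan (1.08, edgeR adjusted p 0.0449). Without mouse 68, 4 were higher in medulla and 3 higher in pons. Sncg, gamma-synuclein of peripherally projecting neurons, was called in all 7 fits that left out 1 mouse, Nefm and Acan in 2 of them (adjusted p up to 0.0965 and 0.103). Of 36 tested potassium and sodium channel genes of 38, 3 were higher in medulla and 3 in pons (16.7% called, against 10.6% of all genes). Kcns3, a silent potassium channel subunit, was at 21.9 to 39.2 CPM (median 35.2) in medulla and 4.43 to 26.5 CPM (median 11.1) in pons (log2 difference 1.42, SE 0.24, edgeR adjusted p 0.00535). Its relative Kcns2 was at 5.29 to 7.47 CPM (median 7.09) and 10.2 to 23.03 CPM (median 16.6) and went the other way without overlap (log2 difference -1.19, SE 0.15, edgeR adjusted p 0.00117).

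The medians of glial and vascular lists stayed close to 0, though some astrocyte genes were called higher in medulla. Of 20 oligodendrocyte and myelin genes, 1 was called (5.0%; median log2 difference 0.10), Qdpr at 0.23, edgeR adjusted p 0.0222, and it was called in 3 of the 7 fits that left out 1 mouse. None of 13 microglial and 14 endothelial or pericyte genes was called (medians 0.04 and 0.07). The astrocyte list had 4 of 16 genes higher in medulla and 0 higher in pons (25% called, against 10.6% of all genes, median 0.08). Without mouse 68, 6 astrocyte genes were higher in medulla and 0 higher in pons. Aldoc, aldolase C, was at 2723 to 3775 CPM (median 3369.7) in medulla and 1934 to 2660.2 CPM (median 2266) in pons without overlap (log2 difference 0.54, SE 0.06, edgeR adjusted p 0.000810), and S100b, a calcium-binding protein, differed by 0.45, edgeR adjusted p 0.00577, also without overlap. Slc7a10, the D-serine transporter, differed by 0.56, edgeR adjusted p 0.00670. Of 12 complement and MHC class I genes, 2 were higher in medulla (16.7% called, against 10.6% of all genes). They were Serpina3n (0.59, edgeR adjusted p 0.0159) and H2-D1 (0.24, edgeR adjusted p 0.0269), called in 6 and 2 of the 7 fits that left out 1 mouse. Of 10 Schwann cell genes, 6 were not tested. Of the 4 tested, only Pmp22 was called (0.27, edgeR adjusted p 0.00640), which is 25% against 10.6% of all genes.

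Of 10 tested immediate early genes, which neurons switch on after activity, 5 were called higher in pons, 0 were called higher in medulla and 5 did not pass the test, beside 10.6% called over all genes (median log2 difference -0.54). Leaving out single mice gave 3 to 6 higher in pons. Fos was at 14.1 to 29.9 CPM (median 19.8) in medulla and 19.3 to 78.98 CPM (median 59.1) in pons (log2 difference -1.30, SE 0.21, edgeR adjusted p 0.00367). Egr1 differed by -0.84, edgeR adjusted p 0.00162 and Arc by -0.82, edgeR adjusted p 0.00746. The lowest pons values of Fos, Egr1 and Arc were those of mouse 68. The labels give no hour of death, and its part was not tested.

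Transcripts of tissues that border a dissection were examined as sums over marker lists. Choroid plexus genes summed to 9.95 to 356 CPM in medulla and 12.6 to 28.8 CPM in pons, and the medulla maximum was mouse 84. Meningeal fibroblast genes summed to 1101 to 2260.4 CPM in medulla and 914 to 4233 CPM in pons, with 1 of 13 called, Slc22a6, higher in pons (-2.06, edgeR adjusted p 0.0156), and not called without mouse 80 (adjusted p 0.0504). Leaving out single mice gave 0 to 3 meningeal genes higher in pons. The control median of this list was -0.70 log2 units. In treated mice 7 of the 13 were called higher in pons, where 2.78% of all genes were, and 0 higher in medulla. Blood genes (haemoglobin genes and Alas2) summed to 3.12 to 63.1 CPM in medulla and 4.14 to 17.9 CPM in pons, and 0 of 5 were called. Without mouse 68, 4 of the 5 were called higher in medulla, where 6.28% of all genes were in that fit. Cerebellar genes summed to 88.7 to 452 CPM in medulla and 53.9 to 236 CPM in pons, with 1 of 9 called in each direction, Calb1 at 1.65, edgeR adjusted p 0.0435 and Fat2 at -2.67, edgeR adjusted p 0.0408. Calb1 was called in 1 of the 7 fits that left out 1 mouse and Fat2 in 3 of the 7 fits (adjusted p up to 0.116 and 0.123). Calb1 is also made by inferior olive neurons, and its medulla values were highest in mice 69, 66 and 68. Forebrain genes summed to 16.9 to 26.6 CPM in medulla and 29.5 to 50.9 CPM in pons, without overlap. Of 8 forebrain genes 4 were tested and 1 was called (25%, against 10.6% of all genes). Emx1 and Tbr1 did not pass the filter. The called gene, Neurod6, was higher in pons (0.959 to 5.64 CPM (median 3.48) in medulla, 3.12 to 28.8 CPM (median 21.4) in pons, log2 difference -2.51, SE 0.17, edgeR adjusted p 2.87e-05). Mitochondrially encoded genes took 2.64% to 3.56% of counts in medulla and 1.73% to 3.06% in pons. Of these 13 genes, 7 were called higher in medulla, where 5.49% of all genes were, and 0 higher in pons. The part of these sums and shares in the differences above was not tested.

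Levels in 15 brain regions were taken as medians over every control library of a region, including the unpaired medulla of mouse 72, on CPM of plain library totals, so they can differ from the medians of the 7 pairs. Of the 126 genes at least 1 log2 unit higher in medulla, 52 (41.3%) had their highest regional median of 15 brain regions in medulla, against 10.1% of all tested genes. Of the 160 genes higher in pons by that rule, 44 (27.5%) had it in pons, against 4.73% of all. These shares are descriptions, since a gene chosen as higher in one region is more likely to peak there. Hoxd1 had a median over these libraries of 4.10 CPM in medulla and at most 1.13 CPM in any library outside the 2 hindbrain regions.

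Irx2 had a median of 119.9 CPM in pons, 12.1 CPM in medulla and 5.47 CPM in cerebellum, the next region. Slc17a8 peaked in pons at 28.03 CPM with caudate putamen next at 13.4 CPM. Other named genes were not hindbrain genes. Chat was highest in caudate putamen (47.5 CPM, medulla 32.2 CPM), where cholinergic interneurons lie, and Chodl was at 27.6 CPM in hypothalamus and 27.5 CPM in medulla. Rasgrp1 was lowest in medulla of all 15 regions and 12th of 15 in pons, with 778 CPM in caudate putamen. Shisa8 was highest in olfactory bulb (152 CPM) and Thbs4 in corpus callosum (44.1 CPM).

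**Figure D4:**
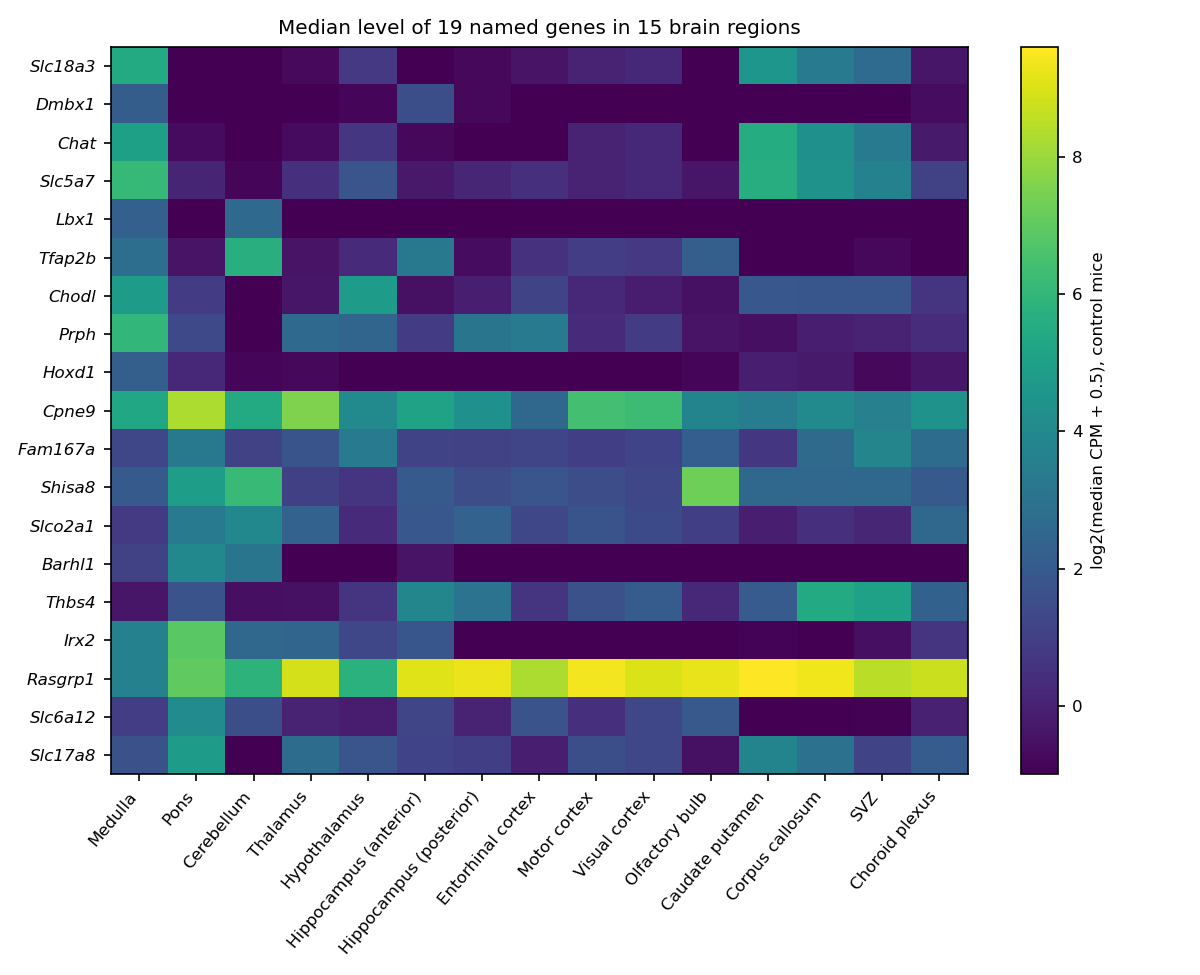
Log2 of the median CPM plus 0.5 of 19 genes named by rule in 15 brain regions of control mice, with medulla-high genes in the upper rows and pons-high genes in the lower rows. Hoxd1 is brightest in the medulla column, while Rasgrp1 is bright in the forebrain and darkest in medulla.

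The treated mice gave a comparison of the same regions in libraries that the control mice do not share. Of 13657 genes tested in 8 pairs, 777 were called (5.69%), 398 higher in medulla (2.91%) and 379 higher in pons (2.78%). Of the 1435 genes called in control mice, 527 were called in treated mice as well (36.7% of the control and 67.8% of the treated calls), all 527 in the same direction, and 1399 of the 1423 tested in both had the same sign (98.3%). Pons of aDR mouse 67 held 159688 CPM of Prl, the prolactin transcript of the pituitary. In Slc6a3 and Hoxd3, pons of aDR mouse 64 and YMP mouse 77 resembled that of AL mouse 68. They held 1031 and 1808 CPM of Slc6a3 and 1.69 and 0.930 CPM of Hoxd3. Without mouse 67 the count was 1298 (9.51%), and without mice 64, 67 and 77 it was 2521 (18.6%). Single treatments gave 73 calls in aDR and 16 in YMP mice.

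Of the 19 genes named by rule and given here, 17 were tested in treated mice and 16 were called in the direction of the control mice. The exception was Slc17a8 (log2 difference -1.80, edgeR adjusted p 0.107; 0.0878 without mouse 67). Without mice 64, 67 and 77, which were chosen after seeing the data, Slc17a8 was called too (log2 difference -2.21, edgeR adjusted p 0.0108). Its pons values in treated mice ran from 0.233 CPM in YMP mouse 77 to 27.9 CPM in YMP mouse 81, and 2 of the 8 pons libraries were below 2 CPM. Slc18a3 differed by 9.67, edgeR adjusted p 3.66e-08, Chat by 6.73, edgeR adjusted p 1.85e-05 and Irx2 by -2.77, edgeR adjusted p 0.00111. Of the cholinergic and motor list, 11 of 14 tested genes were higher in medulla and 0 higher in pons. Higher in pons were 5 of 9 tested rhombic lip genes and 5 of 11 immediate early genes. Over all genes tested in treated mice, 2.91% were higher in medulla and 2.78% higher in pons. Tph2 again did not pass (log2 difference -0.37, edgeR adjusted p 0.691). Whether the treatments changed any of these regional differences was not tested.

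**Figure D5:**
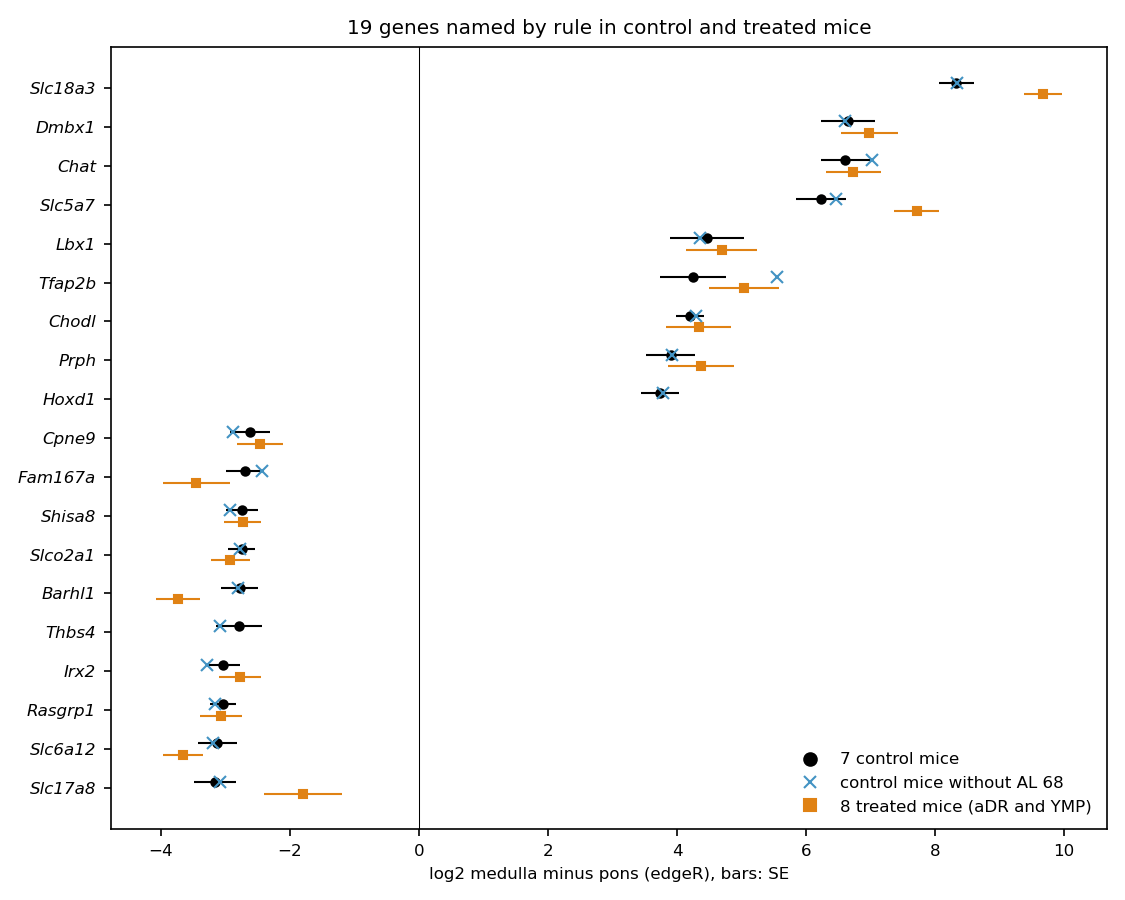
Log2 medulla minus pons of 19 genes named by rule, from edgeR, in 7 control mice (black, bars SE), in control mice without mouse 68 (blue crosses, no bar) and in 8 treated mice (orange, bars SE). Hoxd1 and Thbs4 have no treated value because they did not pass the filter there, and all 17 others lie on the same side of 0 in both sets.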

How the data were processed

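Bulk RNA of medulla and pons was compared in 7 control mice (14 libraries). Per the labels, RNA was isolated with RNeasy columns, copied with Smart-Seq2 and made into unstranded Nextera XT libraries. The values are counts that the authors deposited as 1 table of 21076 genes by 238 libraries, with 0 columns unused. Trim Galore 0.3.7, STAR 2.5.3a, DESeq2 and the GRCm38 build are named in the submitters' processing notes. The counting tool and annotation are not given in the sources used here. Gene positions are from GENCODE (GRCm38), matched by symbol for 509 of 509 genes looked up, and upstream sequences from RefSeq (GRCm38.p6).

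Counts were tested with edgeR 4.0.16 (R 4.3.3): filterByExpr by region (minimum count 10, minimum total 15), TMM scaling, and the quasi-likelihood F test with the mouse as a block, because both libraries of a pair come from 1 animal per the labels. Deviations from the group means correlated at a mean of 0.0774 within mice and -0.0327 between mice of a group, and 3 of 7 mice exceeded 0.1. P-values were adjusted over all tested genes (Benjamini-Hochberg). SE is the log2 difference divided by the root of F. The cohort term tested region by experiment. Alternatives used DESeq2 1.42.0, limma 3.58.1 (voom), other filters, no block, and left out each mouse. Chi-square over genes with at least 20 counts separated all 47 pairs of replicate libraries (at least 2.11 per degree of freedom). On simulated counts of the control design, 92 of 100 genes changed by 1 log2 unit and 100 of 100 changed by 2 were recovered, with 3.03% false calls. The simulated counts had no differences between mice and no shifts shared by many genes of a library, so these rates need not hold here.

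Genes were named by a rule: the 10 called genes with the largest difference in each direction, with the same sign in all pairs and a mean of at least 1 CPM over the libraries. A clone-based name was passed over, and 1 of the 20 genes and some members of the lists are not reported here. There were also 30 gene lists (496 genes). The comparison, the lists and the members were chosen with earlier results of these data known. Genes added after their values were seen are marked.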

Additional observations from a re-analysis of the deposited data

Results flagged for a closer look

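Of 102 genes described, the 7 paired differences (log2 of CPM plus 0.5) were screened for a mouse far from the others, and 17 had one. For independent, normally spread values chance alone gives about 1 in 20, here 5.1. The genes come from the same libraries and were chosen for description, so 17 against 5.1 does not measure an excess over chance. AL mouse 68 was the outlying mouse in 13 of the 17. Its differences were above those of the other 6 mice for Hoxd3 (5.37 against 0.97 to 2.08), Slc6a5 (4.86 against 1.21 to 2.60), Slc17a7 (2.16 against -3.61 to -1.38), Nefm (2.26 against 0.05 to 0.84) and Glp1r (0.58 against -3.81 to -2.71). They were also above for Grm8 (0.28 against -1.93 to -1.39), Crhr1 (-0.080 against -2.64 to -1.73), Egr1 (-0.10 against -1.21 to -0.74), Oprd1 (1.76 against -1.64 to -1.12) and Irx2 (-1.14 against -3.80 to -2.75). They were below the others for Tfap2b (1.42 against 3.01 to 4.14), Sst (-0.88 against 0.39 to 0.85) and Cartpt (-2.31 against 1.47 to 3.49). The pons library of mouse 68 is the one with high Slc6a3 and without Hoxb5.

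PBS mouse 76 stood apart for Zic1 (-3.44 against -1.68 to -0.40) and Ache (0.71 against 0.06 to 0.29), PBS mouse 84 for Penk (-0.26 against 1.19 to 2.25) and PBS mouse 80 for Npy2r (2.86 against 0.33 to 1.36). Hoxa5 and Hoxc4 were higher in medulla in every AL mouse and higher in pons in every PBS mouse. The mean differences were 1.58 and -1.74 for Hoxa5, apart by -3.32, and 2.03 and -1.42 for Hoxc4, apart by -3.45. Mice 68 and 84 lay farthest from 0 in their groups, at 3.56 and -3.29 for Hoxa5 and 5.25 and -3.36 for Hoxc4. The other mice were at 0.49 to 1.51 (AL) and -1.03 to -0.90 (PBS) for Hoxa5. For Hoxc4 they were at 0.79 to 1.22 (AL) and -0.68 to -0.20 (PBS). The region by cohort term gave edgeR adjusted p values of 0.449 for Hoxa5 and 0.465 for Hoxc4, so the split did not pass the test.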

How the results depend on the processing

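The 1435 calls in control mice stayed within 1.5 times of that count without the block (1574), with DESeq2 (1318) or voom (1463) and under the other filters. They were 305 in AL and 910 in PBS mice, 2322 without mice 68 and 84 (chosen after seeing the data), and 812 to 1897 when 1 mouse was left out. The cohort term was called for 0 genes in every fit except DESeq2 (8). The 777 calls in treated mice were 1389 with DESeq2, 1158 without the block, 73 in aDR and 16 in YMP mice, 2521 without mice 64, 67 and 77 (chosen after seeing the data), and 332 to 1298 when 1 mouse was left out.

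Of 89 called genes described, 37 kept their call under every alternative that tested them, and none changed sign. Of 1461 values of these genes, 1294 stayed on the same side and 167 lost the call, 44 of them in the AL mice alone. Genes not called did change sign. Hoxb5 was at 0.13 without the block, 0.20 with voom, 0.0074 with the unpaired medulla library, 1.24 in AL mice and 0.065 without mice 68 and 84, and -0.47 to 0.45 when 1 mouse was left out. Hoxa5 was at -1.74 and Hoxc4 at -1.25 in PBS mice, and Hoxa5 at -0.11 to 0.67 when 1 mouse was left out. Gad1 and Gad2 were at 0.54 and 0.34 in PBS mice and 0.11 and 0.10 without mice 68 and 84, and at -0.29 to 0.080 and -0.16 to 0.054 when 1 mouse was left out. Without the replicate block the count of calls went from 1435 to 1574 in control mice. The cause of these changes was not tested. Libraries of 2.28 to 14.3 M counts limit what can be said of genes such as Dbh, below 20 CPM in every library.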
